A study of Mus musculus with 2 samples.

Results

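Runx1, Runx2, Runx3, Tal1, Lmo2, Nfe2, Gfi1b and Myb are 8 transcription factor genes, chosen by name from the 32285 genes of the count matrices. They were read in 2 single-cell libraries of mouse bone marrow that was cultured into myeloid-derived suppressor cells (MDSC), the immature monocytic and granulocytic cells that restrain T cells. Both libraries came from female C57BL/6 mice of 10 weeks, after red cell lysis and 4 days with GM-CSF and IL-6 at 50 ng/mL each. The DAB library was grown with 1.5 µM dabrafenib, a BRAF kinase inhibitor, and the DMSO library with the same volume of solvent. The comparison asks how the levels of these factors, and the cells that carry them, differed between the drug and its solvent. The sources used here do not say how many mice stand behind each library.

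The RUNX proteins are the DNA-binding subunits of core binding factor, whose other subunit is CBFB, and RUNX1 is needed for the first blood stem cells to form. TAL1, a basic helix-loop-helix protein, pairs with E proteins and is joined to GATA factors through the bridging proteins LMO2 and LDB1, a complex known from stem cells and from the erythroid, megakaryocytic and mast cell lines. NFE2 binds DNA with a small MAF protein and drives platelet formation. GFI1B is a repressor of transcription that acts in erythroid and megakaryocytic precursors. MYB keeps progenitors dividing and is shut down as myeloid cells mature.

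With 1 library per condition no test between conditions was possible. Levels are unique molecular identifiers (UMIs) of a gene per 1000000 UMIs (CPM), summed over cells, and ratios are log2 of DAB over DMSO. Every interval is an exact 95% interval for counting error only, and the spread between cultures is unknown. A gene is called higher or lower where the log2 ratio is at least 0.5 in size, its interval leaves out 0 and both libraries together hold at least 20 UMIs. Reads were taken at the 5′ end of transcripts, so levels are compared between cells and not between genes.

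After filtering, 9023 DMSO cells with 91526926 UMIs and 10460 DAB cells with 139297621 UMIs remained, with medians of 7524 and 9491.5 UMIs per cell. The libraries share 118 cell barcodes among these. Leiden clustering, from which the members were kept out together with those partner genes that mark no class, gave 26 clusters, of which 16 were named from markers and 10 stayed unnamed. The unnamed clusters held 38.6% of DMSO and 39.5% of DAB cells. Of the named classes 10 had at least 50 cells in each library. No cluster was named by the erythroid, megakaryocyte or early progenitor lists, and the 6 erythroid markers summed to at most 2.12 CPM in any class of either library.

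Sequence around the start sites is shown for 5 members, because 3 of them carry the same paired motif. RefSeq promoter windows (build GRCm38.p6, 250 bases before to 50 after a start) were found for 6 of the 8 members, with 9 windows in all, and those of Lmo2 and Nfe2 were not matched. The RUNX motif was searched as AACCACA on both strands and was in 5.27% of the 32851 windows. A pair of these motifs with any 1 base between them, a search chosen after the windows had been seen, was in 5 windows, and 3 of those belong to Runx1, Runx2 and Runx3. The following 30-base stretches run 5′ to 3′ on the strand of the gene, with the RUNX motifs in capitals.
Runx1, chr16:92826026-92826055, minus strand, in an untranslated exon: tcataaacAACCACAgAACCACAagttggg
Runx2, chr17:44814584-44814613, minus strand, in an annotated coding exon: tcacaaacAACCACAgAACCACAagtgcgg
Runx3, chr4:135120502-135120531, plus strand, outside the gene: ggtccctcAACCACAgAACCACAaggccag

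All 3 stretches hold both motifs with the same base between them. The flanking bases of Runx1 and Runx2 are largely alike, while those of Runx3 differ more. The first base shown lies 19 bases after the Runx1 start, 14 bases after the Runx2 start and 143 bases before the Runx3 start.

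For Tal1 and Gfi1b the motif of GATA factors is shown, since GATA proteins sit in the same complexes. It was searched as AGATAA, also with T as the first or G as the last letter, on both strands and was in 29.8% of all windows. In these stretches the capitals mark the GATA match, which in Tal1 reads on the opposite strand.
Tal1, chr4:115056209-115056238, plus strand, outside the gene: ctatagagtcttTTATCTttgagcaattcc
Gfi1b, chr2:28622085-28622114, minus strand, outside the gene: tctgtgaagtttTGATAAgcaaatgtggct

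The window of Myb held no GATA or RUNX motif. No member window held TGANTCA, searched as the core of NFE2 sites and in 7.81% of windows, and the E-box CAGNTG, in 51.4% of windows, was in 1 window each of Runx1, Runx3, Tal1 and Myb. These matches are letters in a window and say nothing of binding.

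Over all cells, Myb, Gfi1b and Tal1 were higher in the DAB library, and no member was lower. Of 8 members, 3 were called higher where 13.6% of the 16334 genes with enough UMIs were, and 0 were called lower where 16.7% of genes were. The median log2 ratio was 0.09 over the members and -0.02 over all genes.

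**Figure D1:**
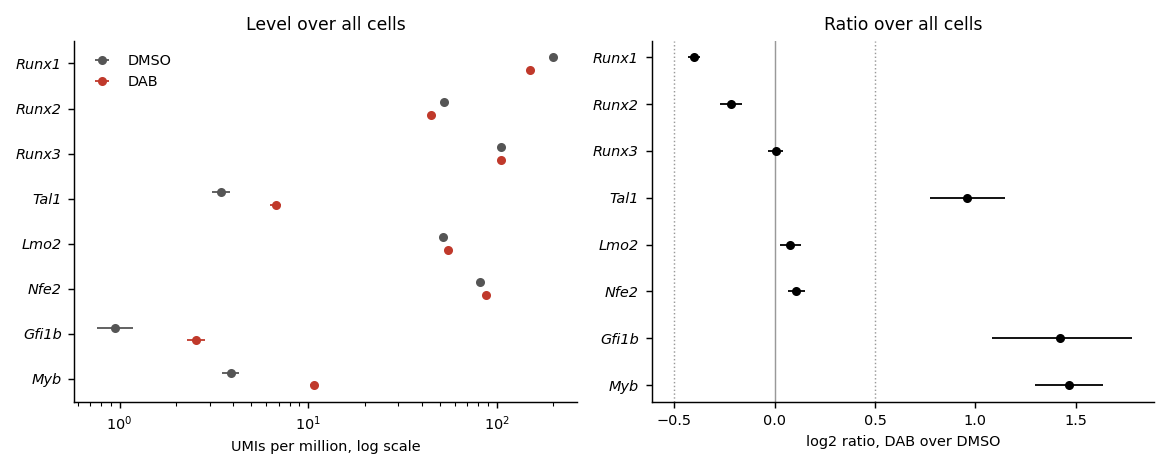
Level of each member over all cells of the DMSO and DAB libraries (CPM, log axis) and its log2 ratio of DAB over DMSO, with exact 95% intervals for counting error. Tal1, Gfi1b and Myb sit to the right of the 0.5 limit, at 0.96, 1.42 and 1.46, and the other members lie between -0.40 and 0.11.

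Myb (chromosome 10, 21124935 to 21160984, minus strand) had 357 UMIs, 3.90 CPM, in DMSO and 1499 UMIs, 10.8 CPM, in DAB, 2.76-fold higher with a log2 ratio of 1.46 (1.30 to 1.63). As a mean over cells the Myb ratio was 0.69, and with cells thinned to equal depth 0.73. Gfi1b (chromosome 2, 28609450 to 28621982, minus strand) had 87 UMIs, 0.951 CPM, in DMSO and 355 UMIs, 2.55 CPM, in DAB, giving a log2 ratio of 1.42 (1.08 to 1.78), or 0.83 with thinned cells. Tal1 (chromosome 4, 115056426 to 115071755, plus strand) had 317 UMIs, 3.46 CPM, in DMSO and 937 UMIs, 6.73 CPM, in DAB, giving a log2 ratio of 0.96 (0.77 to 1.15). Few cells held a UMI of these genes, 227 DMSO and 624 DAB cells for Myb, 76 and 255 for Gfi1b, and 280 and 740 for Tal1, which need not be expressing cells.

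The widely expressed members moved less. Runx1 (chromosome 16, 92601466 to 92826149, minus strand) stood at 199.6 CPM in DMSO and 151.05 CPM in DAB, giving a log2 ratio of -0.40 (-0.43 to -0.37), short of the limit. Runx2 (chromosome 17, 44495987 to 44814797, minus strand) stood at 52.4 and 45.1 CPM, giving a log2 ratio of -0.22 (-0.27 to -0.16). Runx3 (chromosome 4, 135120652 to 135177990, plus strand) stood at 106 CPM in both, with a log2 ratio of 0.01 (-0.03 to 0.04). By summed UMIs Runx1 had the lowest ratio of the family, but as a mean over cells Runx1 and Runx2 stood at -0.22 and -0.31, and thinned at -0.25 and -0.34, so that Runx2 was then the lowest. Lmo2 (chromosome 2, 103957986 to 103981878, plus strand) stood at 52.1 and 55.0 CPM, giving a log2 ratio of 0.08 (0.02 to 0.13). Nfe2 (chromosome 15, 103248212 to 103258403, minus strand) stood at 81.3 and 87.5 CPM, giving a log2 ratio of 0.11 (0.06 to 0.15). Gene positions are those of GENCODE vM21 on GRCm38.

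Shares of cells with a UMI move with depth, so every cell was also thinned to 1500 UMIs, which kept 8588 DMSO and 10171 DAB cells. Thinned, Myb was read in 0.501% of DMSO and 0.855% of DAB cells, against 2.52% and 5.97% before thinning. Tal1 was read in 0.384% and 0.934% of thinned cells, against 3.10% and 7.07%. Gfi1b was read in 0.116% and 0.206%, against 0.842% and 2.44%. The Gfi1b intervals overlapped (0.056 to 0.214 and 0.128 to 0.315%), so its shares were not told apart at equal depth, while those of Tal1 and Myb were higher in DAB with intervals that did not meet. Of B cell-like cells, 0 of 128 DMSO and 0 of 176 DAB thinned cells held a Tal1 or Gfi1b UMI, at median depths of 4005.5 and 4937.5 UMIs, which leaves shares of up to 2.84% and 2.07%. Activated dendritic cell-like cells, at median depths of 17497 and 15529 UMIs, had a Myb UMI in 0% (up to 1.28%) and 0.833% (up to 4.56%) of thinned cells. These limits lie above the shares over all cells, so background RNA of that size cannot be told apart from expression by these shares. Thinned Runx1 shares were 25.7% and 22.1%, and those of Nfe2 13.7% and 14.1%.

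Within the marker-defined classes the members went different ways, with 21 calls in all, 12 of them lower. Runx1 held more of the lower calls than any other member, while Runx2 had 1 lower and 1 higher call. In mature PMN-like cells (mature neutrophils) 1 of 6 members with enough UMIs was higher and 1 lower, where 17% and 9.72% of genes were. In intermediate granulocyte-like cells 2 of 8 were higher and 1 lower, against 22% and 12.8% of genes. In granulocyte progenitor-like cells 1 of 7 was higher and 2 lower, against 15.6% and 15.7%. Among the chemokine-high granulocyte-like cells 2 of 6 were higher and 0 lower, against 9.73% and 11.2%. The granulocytic classes thus held 6 higher and 4 lower calls.

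In immature monocyte-like cells 1 of 6 members was higher and 0 lower, against 9.25% and 19.5% of genes. In mature monocyte-like cells 1 of 7 was higher and 3 lower, against 15.1% and 19.1%. In macrophage-like cells 1 of 5 was higher and 1 lower, against 7.26% and 9.86%. Mature monocyte-like and macrophage-like cells therefore held calls in both directions. In activated dendritic cell-like cells 0 of 6 were higher and 3 lower, against 10.4% and 17.2%. In B cell-like cells 0 of 4 were higher and 1 lower, against 15.4% and 8.21%. In basophil or mast cell-like cells 0 of 6 were called in either direction, against 11.1% and 8.83%.

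**Figure D2:**
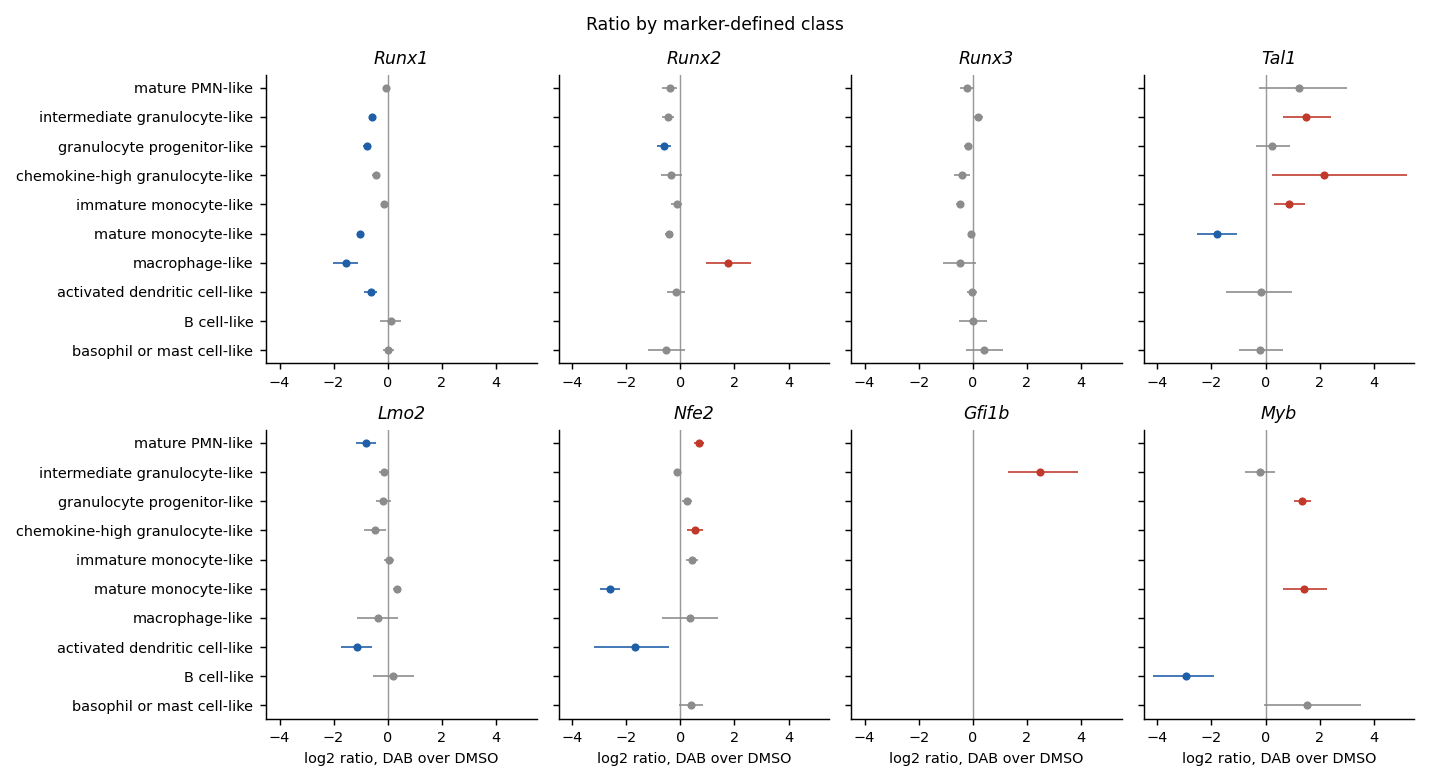
Log2 ratio of DAB over DMSO for each member within each named class, with exact 95% intervals for counting error, where the class held at least 20 UMIs. Nfe2 lies at 0.68 in mature PMN-like and -2.59 in mature monocyte-like cells, while Runx1 lies at or below 0.11 in every class.

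Several classes were filled from different clusters in the libraries. Intermediate granulocyte-like cells were 854 of cluster I and 920 of cluster A among 1893 DMSO cells, but 567 of A and 407 of O among 1174 DAB cells. Mature PMN-like cells came mostly from cluster D in DMSO (770 of 990) and from clusters K and D in DAB (694 and 565 of 1499). Chemokine-high granulocyte-like cells, clusters H and J, numbered 343 in DMSO and 1748 in DAB. The other classes are 1 cluster each.

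Runx1 was read in every class and was highest in basophil or mast cell-like cells of both libraries, at 618 CPM in DMSO and 626 CPM in DAB, apart from every other class. Its lowest classes were activated dendritic cell-like cells in DMSO, at 133 CPM, and mature monocyte-like cells in DAB, at 81.0 CPM. Runx1 was lower in DAB in 5 classes. In macrophage-like cells it fell from 265.7 to 90.7 CPM (200 and 53 UMIs), giving a log2 ratio of -1.55 (-2.02 to -1.11), or -0.95 at resolution 1.5. The macrophage markers of that class themselves went from 1593 to 500 CPM, and their part in the Runx1 difference was not tested. In the same cells chemokine-high granulocyte markers stood at 14949 and 17315 CPM and immature monocyte markers at 11730 and 9224 CPM. Mature monocyte markers stood at 2082 and 1830 CPM, intermediate granulocyte markers at 1801 and 1972 CPM and megakaryocyte markers at 8461 and 6610 CPM. In the DAB cells of the class only 3 of the 6 megakaryocyte markers had a UMI. Over all cells Pf4 led that list, with 10024 DMSO and 13667 DAB UMIs against 694 and 1516 for Ppbp, the next. In mature monocyte-like cells Runx1 fell from 163 to 81.0 CPM, giving a log2 ratio of -1.01 (-1.12 to -0.91). The granulocyte progenitor-like cells followed with 189 and 110.0 CPM, then activated dendritic cell-like cells with 133 and 85.7 CPM and intermediate granulocyte-like cells with 217 and 144 CPM, at log2 ratios of -0.78, -0.64 and -0.59. In mature monocyte-like cells immature monocyte markers went from 3568 to 1861 CPM, and their part in the Runx1 difference was not tested.

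Runx2, best known from bone formation, was lower in granulocyte progenitor-like cells, at 61.3 CPM in DMSO and 40.2 CPM in DAB, giving a log2 ratio of -0.61 (-0.86 to -0.36), or -1.08 at resolution 1.5. In macrophage-like cells it was higher, with 18 UMIs (23.9 CPM) in 99 DMSO cells and 47 UMIs (80.4 CPM) in 64 DAB cells, giving a log2 ratio of 1.75 (0.94 to 2.62), or 0.95 at resolution 1.5 and 0.93 without alignment. The fall of the macrophage markers stands beside this value too. The thinned share of macrophage-like cells with a Runx2 UMI was 5.26% in DMSO and 3.33% in DAB, against the direction of the level, so no order was read from it. Runx1 and Runx2 were thus called in opposite directions in this small class.

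Runx3, which acts in T cells and dendritic cells, was called in no class. In immature monocyte-like cells it stood at 99.8 and 71.7 CPM, a log2 ratio of -0.48 (-0.63 to -0.33), just short of the limit. Chemokine-high granulocyte-like cells were also lower, at -0.42 (-0.70 to -0.12), while intermediate granulocyte-like cells were higher, at 0.19 (0.02 to 0.36). Runx3 was highest in mature monocyte-like cells in both libraries, at 266.6 CPM in DMSO and 252.0 CPM in DAB, apart from the next class. Activated dendritic cell-like cells (153.0 and 149.2 CPM) and granulocyte progenitor-like cells (150.0 and 133.5 CPM) came next and did not differ beyond their intervals. Its lowest levels were 42.9 CPM (intermediate granulocyte-like, DMSO) and 46.6 CPM (chemokine-high granulocyte-like, DAB). Mature monocyte-like cells made up 5.52% of the DMSO library and 7.27% of the DAB library, and they held 24.5% and 33.0% of all Runx3 UMIs. They are deep cells, with 8865844 of the 91526926 DMSO UMIs and 19332020 of the 139297621 DAB UMIs, so their share of cells understates their share of UMIs.

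**Figure D3:**
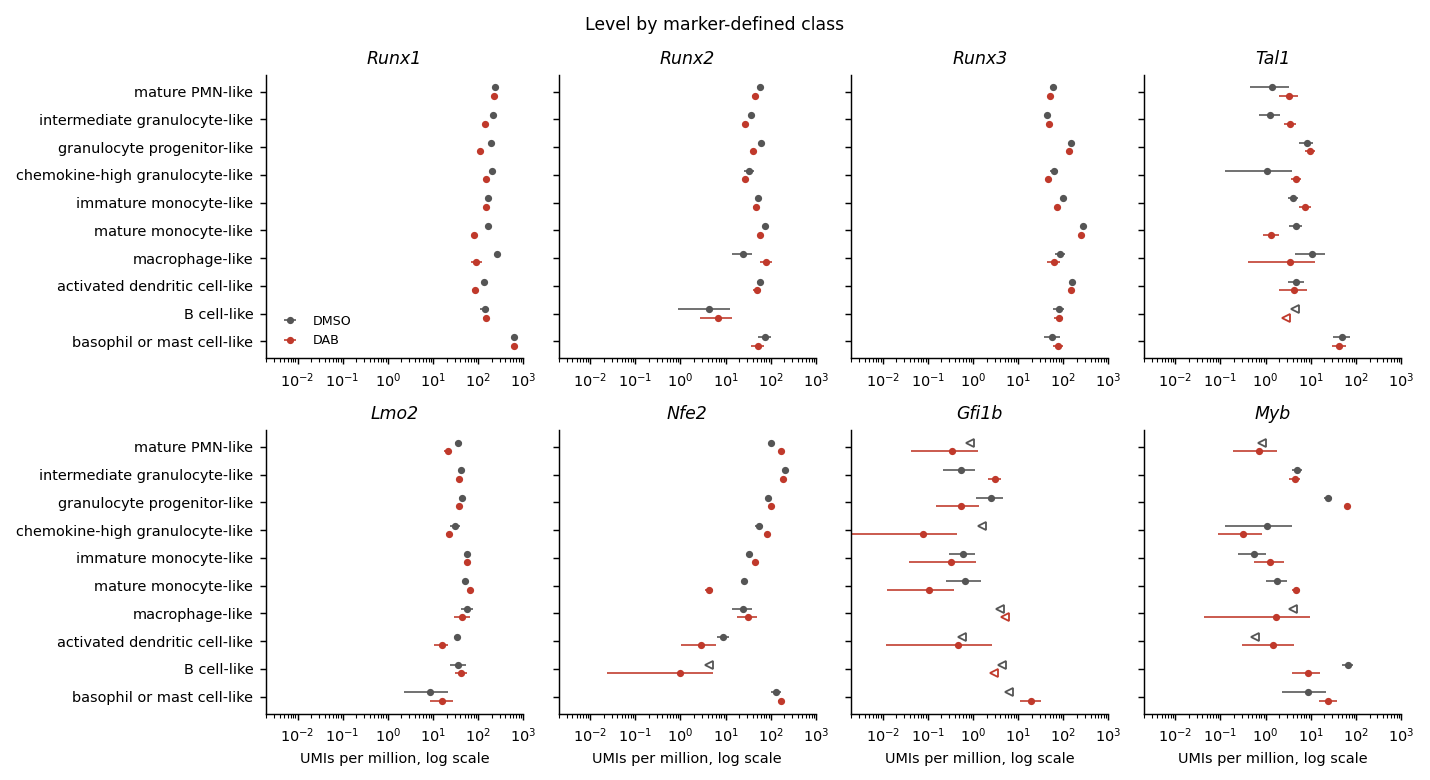
Level of each member (CPM, log axis) in each named class of the DMSO and DAB libraries, with exact 95% intervals for counting error. Runx1 and Tal1 peak in basophil or mast cell-like cells, Runx3 in mature monocyte-like cells and Nfe2 in intermediate granulocyte-like cells.

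Tal1 was highest in basophil or mast cell-like cells, with 23 UMIs (48.7 CPM) in DMSO and 35 UMIs (42.7 CPM) in DAB, giving a log2 ratio of -0.19 (-0.99 to 0.64). B cell-like cells held 0 Tal1 UMIs in both libraries, at median depths of 4005.5 and 4937.5 UMIs, where 3 counts would be 4.39 and 2.86 CPM. Elsewhere Tal1 was sparse. In intermediate granulocyte-like cells it had 16 UMIs (1.25 CPM) in DMSO and 43 UMIs (3.56 CPM) in DAB, giving a log2 ratio of 1.51 (0.65 to 2.44). Chemokine-high granulocyte-like cells had 2 UMIs in DMSO and 59 in DAB, giving a log2 ratio of 2.15 (0.24 to 5.23). The last ratio rests on 2 DMSO counts, and the call was lost at resolution 1.5 and without alignment.

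For Tal1 the sign in immature monocyte-like cells changed without alignment, on 3 DAB UMIs and with an interval that holds both signs. In mature monocyte-like cells only the size depends on the clustering. Immature monocyte-like cells had 67 UMIs (4.07 CPM) in DMSO and 47 UMIs (7.50 CPM) in DAB, giving a log2 ratio of 0.88 (0.31 to 1.44), which turned to -0.43 (-2.72 to 1.16, 118 and 3 UMIs) without alignment. Mature monocyte-like cells had 41 UMIs (4.62 CPM) and 26 UMIs (1.34 CPM), giving a log2 ratio of -1.78 (-2.55 to -1.04), or -0.83 at resolution 0.5. In the immature class the summed level of 6 basophil and mast cell markers also went from 28.8 to 95.2 CPM. That of 6 megakaryocyte markers, a list led by Pf4 over all cells, went from 181 to 479 CPM. The part of both lists in the Tal1 difference was not tested. In the mature class the basophil and mast cell markers stood at 14.4 and 13.9 CPM, while granulocyte progenitor markers went from 213 to 20.9 CPM and immature monocyte markers from 3568 to 1861 CPM, and their part was not tested either.

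Lmo2, the bridging partner of TAL1, was spread over nearly all classes and had its lowest DMSO level, 8.47 CPM from 4 UMIs, in the basophil or mast cell-like cells where Tal1 was highest. In DMSO the macrophage-like (57.1 CPM), immature monocyte-like (55.6 CPM) and mature monocyte-like cells (52.2 CPM) led and did not differ beyond their intervals, and in DAB the mature monocyte-like cells had 66.5 CPM, with an interval that met that of immature monocyte-like cells (57.0 CPM). Lmo2 was lower in DAB in mature PMN-like cells, at 36.6 and 21.1 CPM, giving a log2 ratio of -0.80 (-1.16 to -0.43). It was also lower in activated dendritic cell-like cells, at 34.4 and 15.6 CPM, giving a log2 ratio of -1.14 (-1.72 to -0.60), or -0.67 without doublet removal and -2.02 at resolution 1.5. The own markers of mature PMN-like cells went from 3218 to 6055 CPM. In activated dendritic cell-like cells immature monocyte markers went from 5588 to 1729 CPM. The part of these shifts in the Lmo2 differences was not tested.

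Nfe2 was read most in granulocytic cells, was higher in DAB in 2 of the 4 granulocytic classes and lower in mature monocyte-like and activated dendritic cell-like cells. It was highest in intermediate granulocyte-like cells, at 202.3 CPM in DMSO, apart from the next class, and 185.3 CPM in DAB, where its interval met those of basophil or mast cell-like cells (170.8 CPM) and mature PMN-like cells (166.1 CPM). Between the libraries it was not called in this class, at a log2 ratio of -0.13 (-0.21 to -0.05). B cell-like cells held 0 UMIs in DMSO and 1 in DAB. In mature PMN-like cells Nfe2 rose from 103.8 to 166.1 CPM, giving a log2 ratio of 0.68 (0.50 to 0.86), and its thinned share of cells went from 15.4% to 21.7%. The class's own markers went from 3218 to 6055 CPM and immature monocyte markers from 660 to 2084 CPM. Intermediate granulocyte markers went from 4088 to 2793 CPM there, and the part of these shifts was not tested. In chemokine-high granulocyte-like cells Nfe2 stood at 55.8 and 80.6 CPM, giving a log2 ratio of 0.53 (0.24 to 0.83). The own markers of that class went from 17670.5 to 30318 CPM, likewise not tested. The lower calls came from mature monocyte-like and activated dendritic cell-like cells. Immature monocyte-like cells were not called, at 33.8 and 45.3 CPM, a log2 ratio of 0.43 (0.21 to 0.63). Mature monocyte-like cells had 232 Nfe2 UMIs (26.2 CPM) in DMSO and 84 (4.35 CPM) in DAB, giving a log2 ratio of -2.59 (-2.97 to -2.22). The size of this ratio depends on the clustering, and it was -0.72 at Leiden resolution 0.5, -1.11 without alignment and -1.72 without doublet removal. Activated dendritic cell-like cells had 47 (8.98 CPM) and 6 (2.84 CPM), giving a log2 ratio of -1.66 (-3.18 to -0.43). In mature monocyte-like cells the 6 granulocyte progenitor markers also went from 213 to 20.9 CPM, and in activated dendritic cell-like cells from 248 to 108 CPM, and their part in the Nfe2 differences was not tested.

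Gfi1b was sparse in the named classes. It had 7 UMIs (0.547 CPM) in intermediate granulocyte-like cells of DMSO and 37 (3.06 CPM) in those of DAB, giving a log2 ratio of 2.48 (1.30 to 3.89), while basophil or mast cell-like cells held 0 UMIs in DMSO and 16 (19.5 CPM) in DAB, under the 20 UMIs needed for a call. Macrophage-like and B cell-like cells had 0 UMIs in both libraries. Intermediate granulocyte-like cells were the only class with the 20 UMIs needed. Thinned, 1 of 1791 DMSO and 1 of 1164 DAB cells of this class held a Gfi1b UMI, so its shares were not told apart at equal depth. In that class, where Tal1 was higher too, the class's own 9 markers went from 50391 to 30912 CPM and the immature monocyte markers from 409.9 to 2235 CPM, and their part in the Gfi1b and Tal1 differences was not tested.

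Myb was highest in different classes of the libraries. In granulocyte progenitor-like cells, which hold the neutrophil elastase and myeloperoxidase genes as markers, it had 98 UMIs (24.1 CPM) in DMSO and 457 (62.05 CPM) in DAB, giving a log2 ratio of 1.36 (1.04 to 1.69), or 0.89 without cell cycle regression. Thinned, 1.53% (0.32 to 4.41) of DMSO and 5.42% (2.92 to 9.08) of DAB cells of this class held a Myb UMI. These intervals overlapped, so the shares were not told apart at equal depth. The class had 198 and 242 cells, but 52 and 57 without cell cycle regression. It had 54 and 55 at resolution 1.5, and 187 and 85 without alignment. The 6 markers of that class stood at 4019 and 2630 CPM, and the early progenitor markers at 87.9 and 160 CPM. Markers of other classes were also read there. Immature monocyte markers stood at 2918 and 2619 CPM, intermediate granulocyte markers at 2786 and 2377 CPM and mature monocyte markers at 1905 and 1560 CPM. The part of all these lists in the Myb difference was not tested. In mature monocyte-like cells Myb had 16 UMIs (1.80 CPM) and 93 (4.81 CPM), giving a log2 ratio of 1.41 (0.64 to 2.28). Early progenitor markers went from 83.2 to 173 CPM there, likewise not tested. In B cell-like cells Myb fell from 45 UMIs (65.9 CPM, 140 cells) to 9 UMIs (8.58 CPM, 190 cells), giving a log2 ratio of -2.94 (-4.16 to -1.89), while the 6 B cell markers stood at 2604 and 4132 CPM. In the same cells the mature monocyte markers, chiefly MHC class II genes, went from 6820 to 19434 CPM and the activated dendritic cell markers from 399.6 to 843 CPM, and their part was not tested. The thinned share of B cell-like cells with a Myb UMI was 11.7% and 1.14%, and activated dendritic cell-like cells held 0 and 3 Myb UMIs.

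Where the rise of Myb, Gfi1b and Tal1 lay was read from the share of each gene's UMIs that every cluster held. Cluster R, the granulocyte progenitor-like cells, held 27.45% of Myb UMIs in DMSO and 30.5% in DAB, from 2.19% and 2.31% of cells. These deep cells had 4060658 of the 91526926 DMSO UMIs and 7364456 of the 139297621 DAB UMIs. Unnamed cluster P, led by Cpa3, Il2ra, Cd200r3, Cyp11a1, Hdc and Gata2, went from 0.80% of DMSO to 4.28% of DAB cells. In DAB this cluster held 27.3% (22.75 to 32.3) of Gfi1b UMIs, 16.5% of Myb UMIs and 10.1% of Tal1 UMIs, from 7.39% of all UMIs. Unnamed cluster G, led by Cstdc5, Stfa1 and Stfa2, held 22.8% of Gfi1b, 16.3% of Myb and 20.9% of Tal1 UMIs in DAB. Over all DAB cells these genes stood at 2.55, 10.8 and 6.73 CPM, to be set beside the levels of cluster G below. In DMSO immature monocyte-like cells held 21.1% and mature monocyte-like cells 12.9% of Tal1 UMIs. Their Tal1 levels were 4.07 and 4.62 CPM, beside 3.46 CPM over all DMSO cells, so these shares largely follow the size of the classes.

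**Figure D4:**
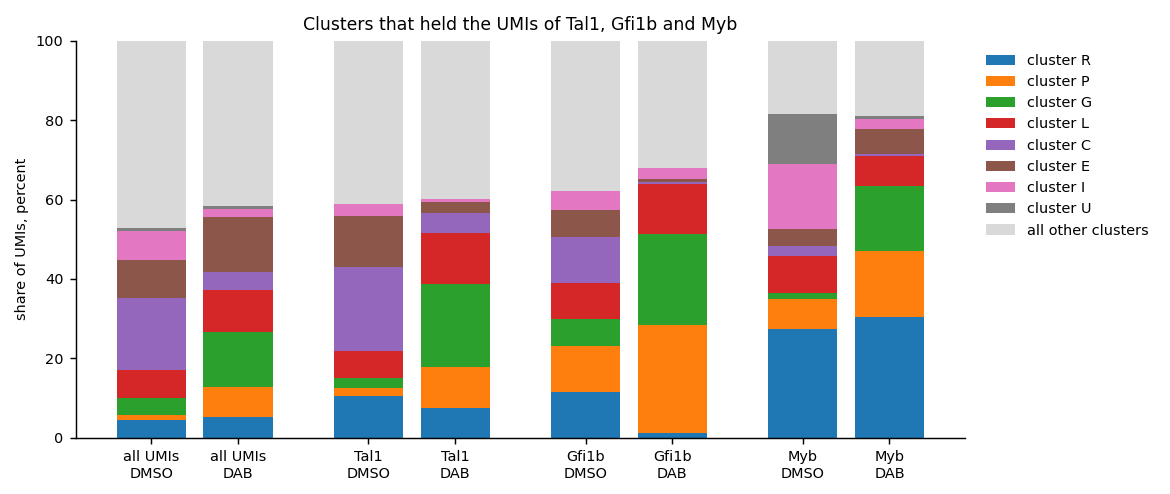
Share of the UMIs of Tal1, Gfi1b and Myb held by clusters R, P, G, L, C, E, I and U in the DMSO and DAB libraries, in percent. All other clusters are drawn together, and the shares of all UMIs are drawn beside those of the genes. In DAB, Gfi1b lies most in clusters P and G (27.3% and 22.8%), Tal1 in G (20.9%) and Myb in R (30.5%).

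Within cluster P itself the levels of Gfi1b and Myb were alike within wide intervals. Gfi1b stood at 8.79 CPM in DMSO (10 UMIs) and 9.42 CPM in DAB (97 UMIs), giving a log2 ratio of 0.10 with an interval from -0.84 to above 1, and Myb at 23.7 and 24.1 CPM, giving a log2 ratio of 0.02 (-0.56 to 0.65). In cluster G Myb, Tal1 and Gfi1b were higher, from few DMSO UMIs. The share of all genes called was not computed for unnamed clusters, so these ratios have no such background. There Myb had 5 UMIs (1.28 CPM) in DMSO and 245 (12.6 CPM) in DAB, giving a log2 ratio of 3.29 (2.05 to 4.93), Tal1 8 UMIs (2.05 CPM) and 196 (10.06 CPM), a ratio of 2.29 (1.28 to 3.52), and Gfi1b 6 UMIs (1.54 CPM) and 81 (4.16 CPM), a ratio of 1.43 (0.25 to 2.92). In cluster L, led by the cycling genes Ube2c, Cenpf and Birc5, Lmo2 stood at 67.1 and 103.45 CPM, giving a log2 ratio of 0.62 (0.47 to 0.78), and Tal1 at 3.18 and 8.16 CPM, a ratio of 1.36 (0.68 to 2.10). With every cell class given the same share in both libraries, the ratio over all cells was 0.96 for Myb, 0.71 for Gfi1b and 0.93 for Tal1.

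The known partners of the members were listed by complex, and over all cells their counts are to be read beside the 13.6% of all genes that were higher and the 16.7% that were lower. Of the 12 TAL1-LMO2 complex genes 2 were higher and 1 lower, with a median log2 ratio of 0.26. Gata2, the GATA factor of stem and mast cells, rose from 20.8 to 47.7 CPM, with a ratio between 1.13 and 1.27, the E protein gene Tcf3 from 19.4 to 29.1 CPM (0.58), and Erg, an ETS factor, fell from 16.6 to 10.3 CPM, a ratio of -0.70 (-0.80 to -0.59). Fli1 and Tcf4, with the most UMIs, stood at ratios of 0.33 and -0.38. Within basophil or mast cell-like cells Gata2 stood at 1143 and 996 CPM, and within cluster P at 170 and 201 CPM, both inside the limit.

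Of 7 RUNX partners 6 had enough UMIs and 0 were called. Their most abundant, the corepressor Tle3 and the partner subunit Cbfb, had ratios of -0.23 and 0.36, and the list's median was -0.08. Of 8 NFE2 partners and relatives 2 were higher, Bach2 (0.62) and Nfe2l1 (0.70), with a median of 0.14, and the most abundant, Nfe2l2 and Mafg, stood at -0.40 and 0.31. Of 8 GFI1B cofactors 1 was higher, the deacetylase gene Hdac1 at 44.2 and 71.0 CPM (0.68), Rcor1 stood at -0.29 and the median was -0.20. Of 6 MYB relatives and coactivators 1 was lower, Mybl1 at 112 and 87 UMIs (-0.97), Cebpb and Ep300 stood at -0.31 and -0.34, and the median was -0.11.

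Of 10 stem and progenitor genes 6 were higher and 2 lower, with a median of 1.37. The surface marker Cd34 rose from 9.54 to 41.4 CPM, a ratio of 2.12 (2.01 to 2.22), and the survival gene Bcl2 from 18.9 to 57.7 CPM, a ratio of 1.61 (1.53 to 1.68). Mecom (15 and 146 UMIs), Hoxa10 (4 and 21 UMIs) and Meis1 (961 and 3496 UMIs) had ratios of 2.68, 1.79 and 1.26, and Flt3 (58 and 246 UMIs) a ratio between 1.06 and 1.92. Hlf and Hoxa9 were lower, at -1.01 and -0.71.

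**Figure D5:**
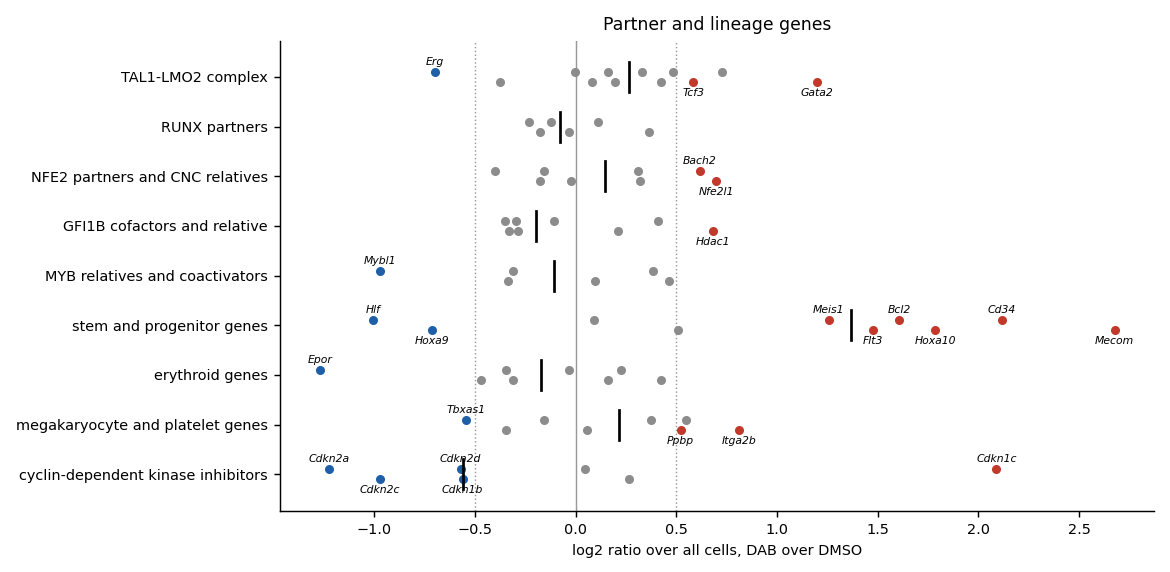
Log2 ratio of DAB over DMSO over all cells for each gene of the partner and lineage lists with at least 20 UMIs, with the list medians. The stem and progenitor genes reach from -1.01 to 2.68 around a median of 1.37, while RUNX partners stay between -0.23 and 0.36.

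Erythroid, megakaryocyte and cell cycle inhibitor genes, whose lines and processes these factors are known to act in, were counted in the same way. Of 12 erythroid genes 8 had enough UMIs and 1 was lower, Epor with 19 and 12 UMIs (-1.27, -2.44 to -0.15), while Slc4a1 had 0 UMIs, Tfrc and Car2 stood at -0.03 and -0.35, and the median was -0.17. Of 10 megakaryocyte and platelet genes 8 had enough UMIs, 2 were higher, Itga2b (0.81) and Ppbp (0.52), and 1 was lower, Tbxas1 (-0.54), with Pf4 at -0.16 and a median of 0.21. Of 7 cyclin-dependent kinase inhibitors 1 was higher, Cdkn1c at 23 and 149 UMIs (2.09), and 4 were lower, Cdkn2a (-1.23), Cdkn2c (-0.97), Cdkn2d (-0.57) and Cdkn1b (-0.56), with Cdkn1a at 0.04 and a median of -0.56.

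The genes most like each member were sought by Pearson r of log2(CPM + 5) over the 20 class and library sums, among 10728 genes with at least 500 UMIs. The 20 points share 2 libraries, so r is a description only. For Gfi1b the DAB basophil or mast cell-like point, 19.5 CPM from 16 UMIs, stands apart from the others, at most 3.06 CPM. For Tal1 the basophil or mast cell-like points, 48.7 and 42.7 CPM, stand apart from the others, at most 10.6 CPM. The r values of these genes therefore rest largely on those points. Runx1 was most like Tec (0.92), Dtnb (0.89) and Smpd1 (0.89), Runx2 like Ehbp1l1 (0.87), Emb (0.87) and Cdh1 (0.86), and Runx3 like Kmo (0.92), Vrk1 (0.91) and H2-DMb1 (0.91). Tal1 was most like Ikzf2 (0.93), Akr1c13 (0.92) and Npl (0.92), and Lmo2, with the weakest likeness, like Arhgap39 (0.80), Zdhhc14 (0.77) and Ucp2 (0.76). Nfe2 was like Arap3 (0.93) and Abtb1 (0.93), Gfi1b like Tmem158 (0.85), Abhd15 (0.85) and Hist2h2bb (0.82), and Myb like Gfi1 (0.91), Hist1h1a (0.90) and Bard1 (0.89).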

How the data were processed

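The deposited values are raw counts of UMIs for each gene in each cell, which the authors made with Cell Ranger 7.0.0 on mm10, without normalization. From these counts, barcodes over 10% mitochondrial UMIs (55 DMSO and 89 DAB) and doublets scored against simulated ones (777 and 1082) were removed, and a limit of 4 median absolute deviations took away 0. The members and lists were chosen with earlier results of these data known.

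Pearson residuals of 3000 variable genes, with 70 member and partner genes left out, were reduced to 40 components, aligned by mutual nearest neighbours and clustered by Leiden at resolution 0.9 (Python 3.11.15, numpy 2.4.6, scipy 1.17.1, igraph 0.11.9, leidenalg 0.10.2). A cluster took a class name where its markers led with a mean log2 fold of at least 1.2, a limit set after the clusters were seen.

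Summed counts were compared as ratios with exact conditional intervals, shares with Clopper-Pearson intervals and levels with exact Poisson intervals (95%, floor 3 counts). The ratio step was also run on simulated Poisson counts. Those lack any clumping of UMIs within cells, so the run says nothing of such spread in these data. Named were the 8 members, of each list every gene past the limit and the 2 with the most UMIs, and the 3 genes most like each member, of which some items are not reported here. The authors' integrated object and their other experiments were not used.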

Additional observations from a re-analysis of the deposited data

Results flagged for a closer look

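For 4 members calls in opposite directions were made in different classes, with 1 library per condition, so these differences between classes were not tested. By class, 7.26% to 22% of all genes were called higher and 8.21% to 19.5% lower. The share of all genes with calls in both directions was not computed, so the 4 members are not set apart from other genes. Nfe2 was higher in DAB in mature PMN-like (0.68) and chemokine-high granulocyte-like cells (0.53) and lower in mature monocyte-like (-2.59) and activated dendritic cell-like cells (-1.66), on the log2 scale of the ratios. Tal1 was higher in intermediate granulocyte-like (1.51), chemokine-high granulocyte-like (2.15) and immature monocyte-like cells (0.88) and lower in mature monocyte-like cells (-1.78), but the immature monocyte-like value turned to -0.43 without alignment, and the chemokine-high call was lost there and at resolution 1.5. Myb was higher in granulocyte progenitor-like (1.36) and mature monocyte-like cells (1.41) and lower in B cell-like cells (-2.94). Runx2 was lower in granulocyte progenitor-like cells (-0.61) and higher in macrophage-like cells (1.75).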

How the results depend on the processing

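Some ratios over all cells moved beyond their counting interval under other settings. As a mean over cells in place of summed UMIs, Runx1 stood at -0.22, Runx2 at -0.31, Runx3 at -0.13, Lmo2 at -0.23, Nfe2 at 0.019 and Myb at 0.69. With equal class shares in both libraries, Runx1 stood at -0.45, Runx3 at -0.11, Nfe2 at 0.16, Gfi1b at 0.71 and Myb at 0.96. Thinned to 1500 UMIs, Runx1 stood at -0.25, Runx2 at -0.34, Runx3 at -0.19, Tal1 at 1.25, Lmo2 at -0.21, Nfe2 at 0.037, Gfi1b at 0.83 and Myb at 0.73. Thus Runx3 and Lmo2 crossed 0, and the cause was not tested. With a fold limit of 1 on the log2 scale, 2 members were called higher and Tal1 was lost.

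Chosen after seeing the data, leaving out shared barcodes, or the richest cell of each gene, lost 0 of 24 calls, and leaving out cluster P or N lost 0 of 3, with Gfi1b at 1.23 and Runx1 at -0.45 without P.

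Of 21 class calls, resolution 1.5 lost Lmo2 in mature PMN-like cells (-0.50), Tal1 in chemokine-high granulocyte-like cells (1.93, -0.01 to 5.02) and Runx1 in activated dendritic cell-like cells (-0.28). Without alignment Lmo2 (-0.48) and Tal1 (1.18) in those classes and Runx1 in granulocyte progenitor-like cells (-0.44) were lost, and Tal1 in immature monocyte-like cells turned to -0.43 (118 and 3 UMIs). Resolution 0.5 lost Nfe2 in chemokine-high granulocyte-like cells (0.44), and 6 calls could not be computed. Without cell cycle regression Runx1 in activated dendritic cell-like cells was lost (-0.49). Without thinning, the difference in the share of cells with a UMI turned to 0.91 percentage points for Runx2 and 2.46 for Runx3. Under 20 UMIs no ratio was given, which left Gfi1b with 1 class. No paired analysis was possible because each condition has 1 library.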

Other observations

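Cluster N, an unnamed cluster of low depth (medians 2555 and 3977.5 UMIs) led by Gm26917, Gria3 and Neat1, had the highest Runx1 levels of the clusters given here, at 1312 CPM in DMSO and 1007 CPM in DAB. Neat1 is a nuclear RNA, and whether reads in introns were counted is not given in the sources, so these levels may not be on the footing of the other clusters, which was not tested. Runx2 stood at 259 and 222 CPM there, and Myb had 13 UMIs in DMSO (15.9 CPM) and 107 in DAB (69.65 CPM), a log2 ratio of 2.13 (1.30 to 3.09). Only 4 DMSO and 26 DAB cells were eosinophil-like, too few for a comparison, and its DAB cells had 22 Myb UMIs, 72 Nfe2 UMIs and 5 Gfi1b UMIs. In cluster W, led by Mt2, Mt1, Pdzk1ip1 and Itga2b, Tal1 had 6 UMIs (4.70 CPM) in 140 DMSO cells and 15 (34.6 CPM) in 46 DAB cells.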
